A study of Mus musculus with 7 samples.

Results

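The genes described here encode the nuclear subunits of the mitochondrial oxidative phosphorylation complexes. They were chosen by symbol: every gene whose symbol starts with Ndufa, Ndufb, Ndufc, Ndufs, Ndufv, Uqcr, Cox4i, Cox5, Cox6, Cox7, Cox8 or Atp5, leaving out entries marked as processed pseudogenes. This rule took 89 of the 31053 genes in the matrices. Of these, 80 are subunits, with 36 in complex I, 8 in complex III, 20 in complex IV and 16 in the ATP synthase (complex V). The other 9, Ndufaf1 to Ndufaf8 and Atp5s, are assembly factors or related proteins that share the symbols, and they were left out of the summed subunit share. Cox7b2 and Cox8b had 0 UMIs (unique molecular identifiers, the counted transcripts) in the cells kept, and Cox8c and a second Atp5o entry had 1 UMI each.

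Complex I takes electrons from NADH, complex III passes them through cytochrome c to complex IV, and complex IV hands them to oxygen. The protons pumped on the way drive the ATP synthase. Most subunits are encoded in the nucleus and imported. The 13 genes for subunits of complexes I, III, IV and V in the mitochondrial genome carry the prefix mt- in mouse gene symbols. Several complex IV subunits exist as pairs of isoforms, one used in most tissues and the other in few (Cox6a2 in heart and skeletal muscle, Cox6b2 in testis, Cox4i2 in lung). In marrow, neutrophils are known to rely largely on glycolysis as they mature, and maturing red cells lose their mitochondria late.

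Whole mouse bone marrow, taken from hips, spine and leg bones and freed of red cells by lysis, was profiled one cell at a time by droplet-based 3′ RNA sequencing, with 4 pools of samples spread over 7 libraries. Within a pool each sample carried its own hashtag antibody, which gave 20 samples. The series text names only HRO.5 and HRO.6, as TET2-mutated samples of a chronic kind, and these are called chronic here. What the prefixes HRO, WTO, HRY and WTY stand for is not stated, so genotype, age and treatment of those groups are not given.

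The groups were chronic (HRO.5 and HRO.6, both in pool WBM_1), HRO (HRO.7, HRO.8 and HRO.9 in WBM_2, HRO.10 in WBM_3, HRO.11 and HRO.12 in WBM_4), HRY (HRY.4 in WBM_1, HRY.5 and HRY.6 in WBM_3), WTO (WTO.3 in WBM_1, WTO.4 in WBM_2, WTO.5 and WTO.6 in WBM_4) and WTY (WTY.3 in WBM_1, WTY.4 and WTY.5 in WBM_3). HR.7 (WBM_3) and HR.AE (WBM_2) stand alone and entered no comparison. Whether the hashtags of a group mark different animals is not given in the labels, and p-values reflect the variation among hashtag samples, which may be technical. Libraries held 25343305 to 95553827 UMIs. Of 78720 barcodes, 57982 carried a single hashtag and 43062 were kept, 928 (WTY.4) to 5530 (HRO.7) per sample. Unnamed clusters held 17.3% of them. WBM_1 stood apart in its barcodes: 27 of its 16012 begin with AAACCT and 0 with AAACCC, whereas the other libraries hold 5 to 17 that begin with AAACCC and 0 with AAACCT. All levels below are counts per 1e6 UMIs (CPM) of a sample's cells of one class, and shares are percent of those UMIs. A 3′ count does not depend on gene length in a known way, so levels are compared between cells and samples, not between genes.

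Promoter sequences of the members are shown because some of these genes carry the same few short motifs near their start. RefSeq windows of GRCm38.p6, from 250 bases before to 50 bases after an annotated start, were found for 72 of the 89 members. Among the 70 windows of 64 subunit genes, the NRF1 motif (GCGCA and GCGC with 1 base of any kind between them) was present in 17 (24.3%), against 4.60% of all 32851 windows, with both strands searched. The ETS motif CCGGAAG was present in 14 (20%), against 8.86% of all windows, and the YY1 motif AAGATGGC in 9 (12.9%), against 2.75%. None of the 3 motifs contains another, and a match describes letters in a window, not a binding site. The 6 windows below are those of Cox6a1 (chr5:115348909-115349208, minus strand), Ndufs6 (chr13:73328433-73328732, minus strand), Atp5k (chr5:108434350-108434649, minus strand), Uqcr11 (chr10:80406772-80407071, minus strand), Atp5b (chr10:128083057-128083356, plus strand) and Atp5g1 (chr11:96075582-96075881, minus strand). The first 3 hold motifs of more than 1 kind, and the last 3 belong to members that differed between groups in monocytes. Capitals mark the motif matches.
Cox6a1: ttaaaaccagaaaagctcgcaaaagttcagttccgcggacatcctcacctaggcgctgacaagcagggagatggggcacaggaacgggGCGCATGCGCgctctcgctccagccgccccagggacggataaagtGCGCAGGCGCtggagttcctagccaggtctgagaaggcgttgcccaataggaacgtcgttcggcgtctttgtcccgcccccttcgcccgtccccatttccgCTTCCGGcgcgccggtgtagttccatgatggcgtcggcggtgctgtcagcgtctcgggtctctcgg
Ndufs6: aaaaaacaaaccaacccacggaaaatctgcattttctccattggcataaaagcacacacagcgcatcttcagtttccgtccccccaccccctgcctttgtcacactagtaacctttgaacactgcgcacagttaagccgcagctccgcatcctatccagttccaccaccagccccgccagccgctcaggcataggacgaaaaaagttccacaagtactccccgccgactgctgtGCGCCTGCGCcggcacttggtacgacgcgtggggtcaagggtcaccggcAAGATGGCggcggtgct
Atp5k: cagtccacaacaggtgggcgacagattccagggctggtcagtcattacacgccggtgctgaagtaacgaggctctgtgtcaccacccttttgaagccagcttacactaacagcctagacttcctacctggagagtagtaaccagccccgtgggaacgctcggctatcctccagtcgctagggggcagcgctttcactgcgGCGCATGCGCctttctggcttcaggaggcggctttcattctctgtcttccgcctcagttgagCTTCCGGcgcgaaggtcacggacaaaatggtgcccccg
Uqcr11: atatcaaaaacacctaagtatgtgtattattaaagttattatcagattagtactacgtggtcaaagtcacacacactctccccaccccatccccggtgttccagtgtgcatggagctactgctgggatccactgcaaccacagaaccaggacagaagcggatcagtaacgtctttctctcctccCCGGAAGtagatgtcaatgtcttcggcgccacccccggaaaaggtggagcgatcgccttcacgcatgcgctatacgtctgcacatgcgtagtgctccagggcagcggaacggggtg
Atp5b: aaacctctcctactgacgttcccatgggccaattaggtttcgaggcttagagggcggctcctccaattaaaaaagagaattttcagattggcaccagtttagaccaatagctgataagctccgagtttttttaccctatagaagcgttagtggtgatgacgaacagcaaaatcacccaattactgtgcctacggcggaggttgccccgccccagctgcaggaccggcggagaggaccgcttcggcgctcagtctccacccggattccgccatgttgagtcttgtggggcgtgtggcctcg
Atp5g1: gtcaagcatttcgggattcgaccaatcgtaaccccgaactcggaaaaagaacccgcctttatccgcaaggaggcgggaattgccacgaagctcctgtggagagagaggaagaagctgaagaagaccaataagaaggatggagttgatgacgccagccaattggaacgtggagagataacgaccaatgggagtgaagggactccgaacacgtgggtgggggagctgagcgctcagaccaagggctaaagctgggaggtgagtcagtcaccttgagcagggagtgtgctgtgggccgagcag
Cox6a1 has 2 NRF1 matches and 1 ETS match, Ndufs6 an NRF1 and a YY1 match, Atp5k an NRF1 and an ETS match, and Uqcr11 an ETS match. The windows of Atp5b and Atp5g1 hold none of these letters.

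The summed share of UMIs from the 80 subunit genes differed between marrow classes, which were named from marker genes in clusters made without the members. Mature neutrophils, the end stage of the granulocyte line, had the lowest share, with a median over 18 samples of 0.859% (lowest 0.656%, highest 1.21%). Immature neutrophils, which still make granule proteins, had 1.32% (1.14% to 1.78%, 19 samples). Granulocyte-monocyte progenitors had 2.40% (2.05% to 3.50%, 17 samples), monocytes 2.63% (1.95% to 3.52%, 17 samples) and erythroid cells 3.48% (2.10% to 4.29%, 10 samples). Among the classes of this paragraph, the share was thus lowest in the neutrophil classes and highest in erythroid cells, with monocytes next.

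**Figure D1:**
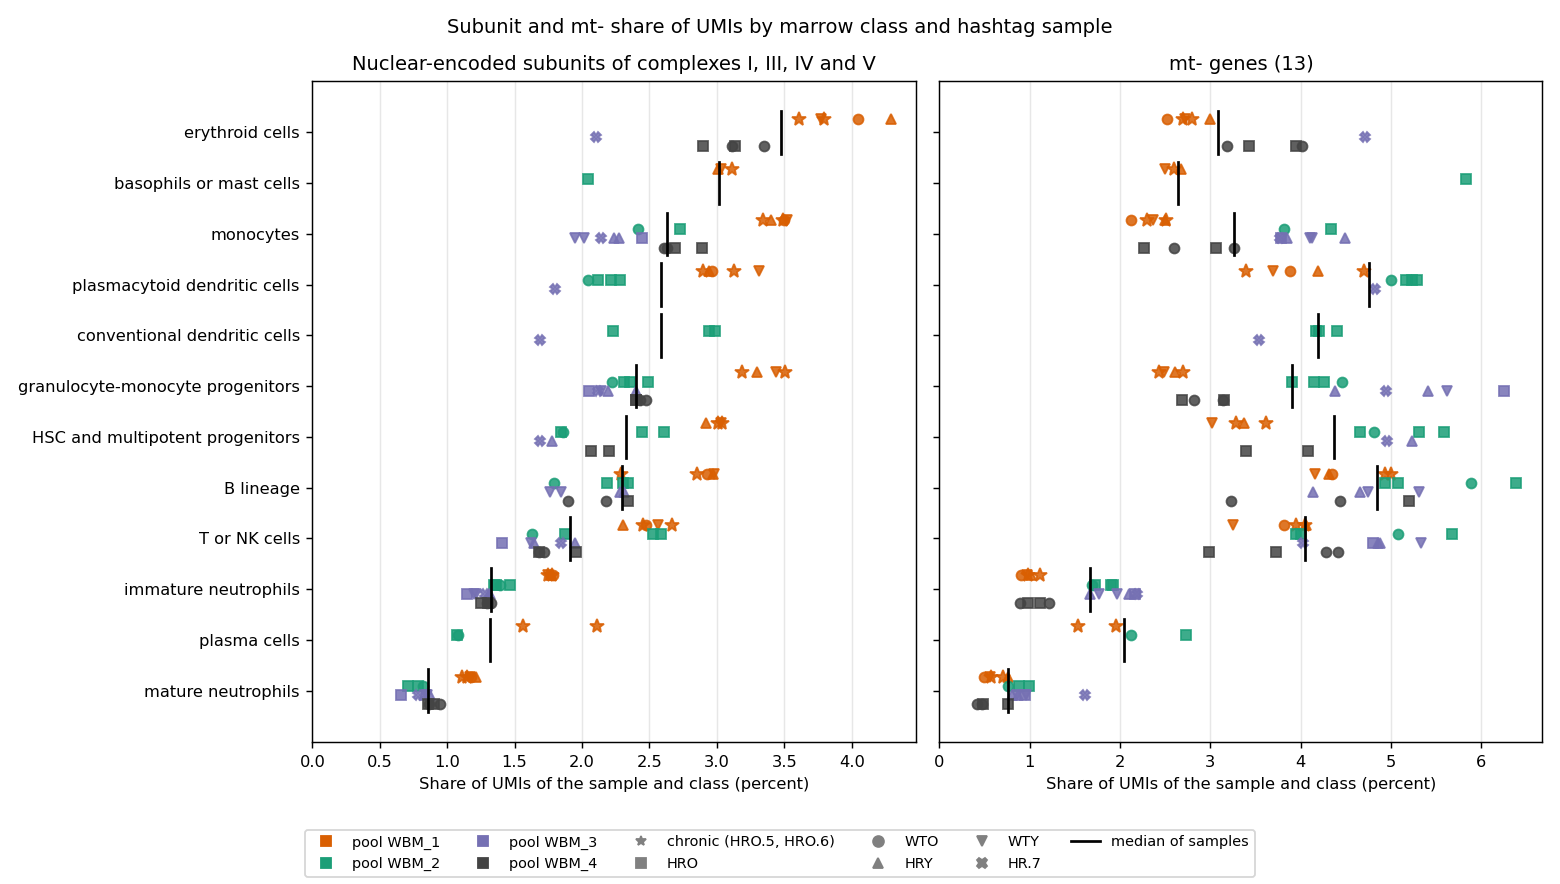
Share of UMIs (percent) from the nuclear-encoded subunits (left) and from the 13 mt- genes (right), one point per hashtag sample with at least 20 cells of the class; colours are pools, shapes are groups and black bars are medians over samples. Mature neutrophils lie lowest in both panels (medians 0.859% and 0.761%), while the order of the other classes differs between the panels.

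Classes were then compared within each sample, which holds the pool fixed but not the depth per cell. Immature neutrophils were above mature neutrophils in 18 of 18 samples, by a median of 0.494 percentage points. Granulocyte-monocyte progenitors were above immature neutrophils in 17 of 17 samples, by a median of 1.09 percentage points. These steps follow the order in which neutrophils mature, and mature neutrophils were the lowest class measured in all 18 samples with at least 20 of them. Monocytes were above T or NK cells in 16 of 16 samples, above HSC and multipotent progenitors in 10 of 10, and above plasmacytoid dendritic cells in 8 of 8. Erythroid cells were above monocytes in 9 of 10 samples. The exception was HR.7, whose erythroid share of 2.10% was the lowest of the class and whose monocyte share was 2.14%. The remaining classes had medians of 1.32% in plasma cells (4 samples), 1.91% in T or NK cells (18), 2.30% in B lineage cells (16), 2.32% in HSC and multipotent progenitors (12), 2.59% in conventional (4) and plasmacytoid (10) dendritic cells, and 3.02% in basophils or mast cells (4). Basophils or mast cells came from WTY.3, HRY.4 and HRO.6 of WBM_1 and from HRO.9 of WBM_2, so their median cannot be fully told apart from the pool. The conventional dendritic class was mixed. When each of its 1364 cells was gated by its own markers, 350 fell in that class, 416 in monocytes and 281 in granulocyte-monocyte progenitors. HRO.7 and HRO.8 gave 916 and 312 of its cells.

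The mt- share did not follow the same order. It was also lowest in mature neutrophils, with a median of 0.761%, but highest in B lineage cells (4.84%), plasmacytoid dendritic cells (4.76%) and HSC and multipotent progenitors (4.37%). Monocytes, whose nuclear share was above that of T or NK cells, had an mt- share of 3.26%, below T or NK cells (4.05%) in 16 of 16 samples. Erythroid cells had 3.09% and immature neutrophils 1.67%. The ratio of nuclear subunit UMIs to mt- UMIs therefore spread from a median of 0.466 in B lineage cells and 0.491 in T or NK cells to 1.13 in mature neutrophils and erythroid cells and 1.16 in basophils or mast cells. HSC and multipotent progenitors had a ratio of 0.534 and granulocyte-monocyte progenitors 0.603, and the granulocyte-monocyte progenitors had the lower mt- share in 11 of 12 samples. Cells with an mt- share of 10% or more had been removed, which bounds the mt- values from above. Over the 149 sums of a sample and a class, the subunit share had a Spearman correlation of 0.311 with the mt- share and of 0.229 with the median UMIs per cell. These sums share samples and libraries, so the values are a description.

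The subunit share ran with that of other nuclear genes of mitochondria. Across the same 149 sums its Spearman correlation was 0.897 with the share of the mitochondrial ribosome genes (Mrpl and Mrps), 0.871 with that of the import genes (Timm and Tomm) and 0.832 with that of the cytosolic ribosome. It was 0.414 with the citric acid cycle and -0.275 with glycolysis. Among 5915 genes outside the members, levels among those most like the subunit share were those of Slirp, which binds mitochondrial messenger RNA (0.936), the mitochondrial ribosomal gene Mrps14 (0.926), Rps27l (0.924) and Naa38 (0.913). All of these are correlations over sums that share depth and pool.

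Most single members were lowest where the summed share was lowest. Of the 83 members with at least 1000 UMIs in the named classes, 68 were lowest in mature neutrophils, both by the median level over samples and by the level pooled over all cells of a class. The class with the highest level depended on how samples were weighted. By the median over samples, erythroid cells were highest for 45 members, basophils or mast cells for 13 and conventional dendritic cells for 6. In the pooled levels, to which HR.7 gives 1132 of the erythroid cells, these numbers were 18, 12 and 32. Pooled without HR.7, erythroid cells were highest for 44 members, and pooled without HRO.7 and HRO.8, conventional dendritic cells for 2. Pools also entered the classes unevenly. Basophils or mast cells rest on WTY.3, HRY.4 and HRO.6 of WBM_1 and on HRO.9 of WBM_2, while the conventional dendritic class had no WBM_1 sample. Subunit shares were higher in WBM_1 (below), so class and pool cannot be fully told apart in these ranks. The fold between the highest and the lowest class had a median of 5.17 by sample medians and 4.52 pooled. In the mix of complexes, complex I made up a median of 34.8% of subunit UMIs in plasma cells, 33.2% in immature neutrophils and 28.2% in erythroid cells. Complex III lay between 8.68% in immature neutrophils and 11.8% in basophils or mast cells, and complex V between 25.8% in plasma cells and 30.5% in monocytes.

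**Figure D2:**
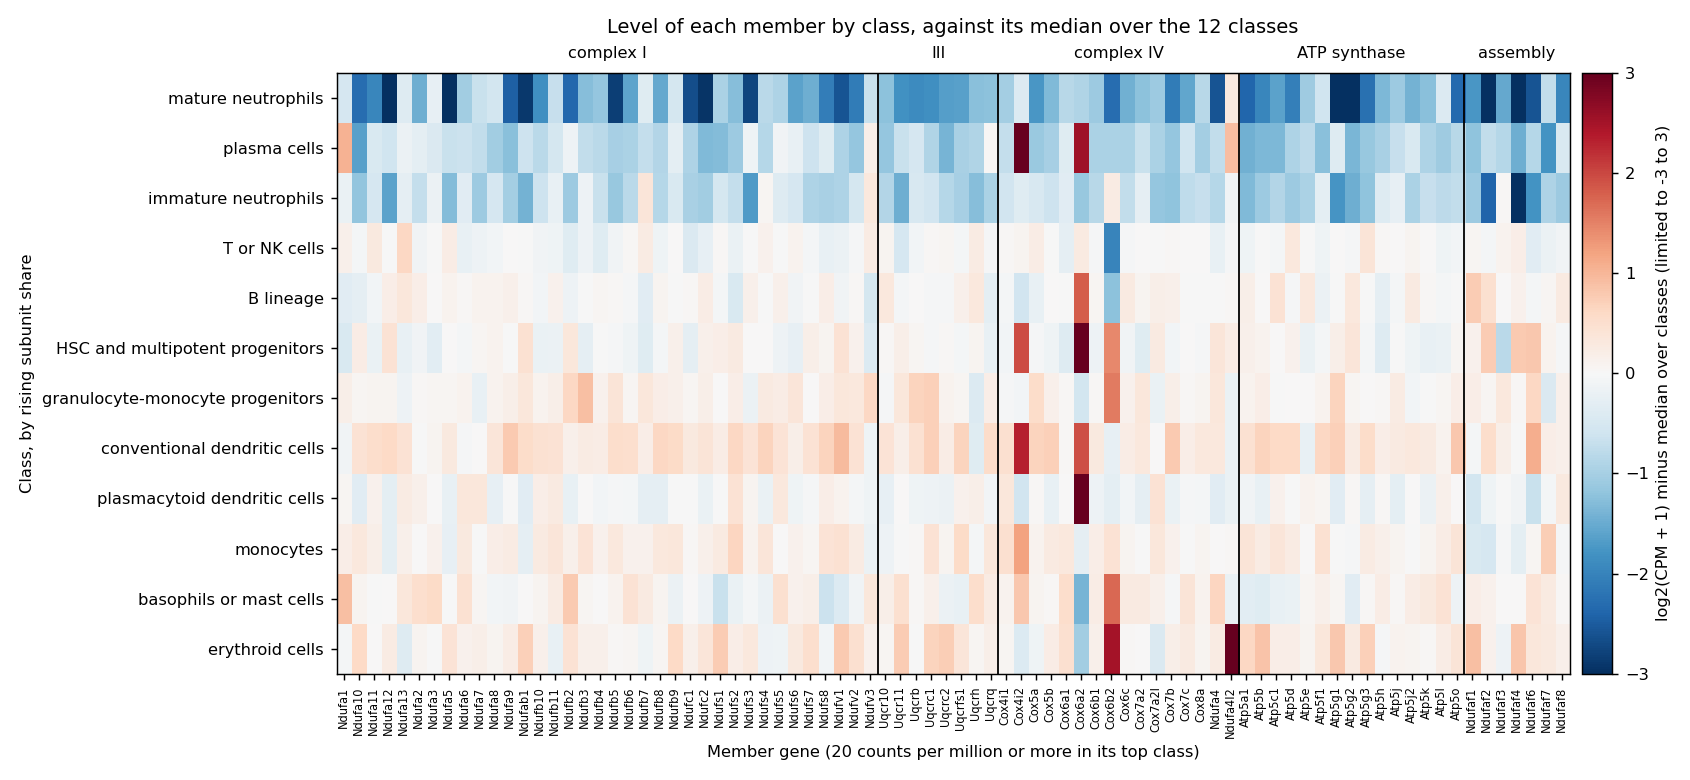
Pooled level of each of 82 members in the 12 classes as log2(CPM + 1) minus the member's median over classes, classes ordered by rising subunit share and members grouped by complex. The row of mature neutrophils is blue for nearly every member, and Cox4i2, Cox6a2, Cox6b2 and Ndufa4l2 stand out as red cells in 1 or a few classes.

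Members differed in how steeply their levels changed between classes, as judged by medians over samples. Among the genes for the c subunit of the ATP synthase ring, Atp5g1 had 962 CPM in erythroid cells against 27.3 CPM in mature neutrophils, a 35.3-fold difference. Its pooled fold was 17.3, and 27.4 without HR.7, whose erythroid cells had 302 CPM. Atp5g2 differed 14.7-fold (694 CPM in HSC and multipotent progenitors against 47.2 CPM) and Atp5g3 7.83-fold (582 CPM in erythroid cells against 74.4 CPM). Ndufv1, the NADH-binding subunit of complex I, differed 14.0-fold (111 CPM in conventional dendritic cells against 7.91 CPM), and Ndufa12 13-fold (213 CPM in erythroid cells against 16.4 CPM). The assembly factors Ndufaf4 and Ndufaf2 differed 33.5-fold and 24.3-fold, and Ndufaf6 51.7-fold by medians and 25.4-fold pooled. These 3 folds rest on few counts. In mature neutrophils Ndufaf4, Ndufaf2 and Ndufaf6 had 38, 37 and 16 UMIs over 18 samples, with medians of 1.91, 1.82 and 0.342 CPM. Folds under the median of the members included those of the complex IV subunits Cox4i1 (2.77-fold), Cox7a2l (2.95-fold), Cox8a (3.22-fold), Cox6b1 (3.42-fold), Cox6a1 (4.12-fold) and Cox7a2 (4.17-fold). Flat levels were not limited to complex IV: the complex I subunit Ndufa13 had 433 CPM in basophils or mast cells and 227 CPM in mature neutrophils. Cox6a1 had 911 CPM in erythroid cells and 221 CPM in mature neutrophils by medians, while its pooled fold was 2.57, with basophils or mast cells highest. Cox4i1 still had 508 CPM in mature neutrophils against 1409 CPM in monocytes. Cox7b differed 7.25-fold and Ndufa4 10.3-fold. By pooled levels, the members with the highest mean of their complex were Ndufa2 (531 CPM in basophils or mast cells, 135 CPM in its lowest class), Uqcrh (1057 and 304 CPM), Cox4i1, Atp5e (977 CPM in B lineage cells, 374 CPM in its lowest class) and, among the assembly factors, Ndufaf8 (103 and 21.0 CPM).

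Isoforms of complex IV known from other tissues had their highest levels in different marrow classes. Cox6a2 (chromosome 7, 128205435 to 128206387, minus strand, GRCm38, GENCODE), the muscle form of subunit 6a, marked plasmacytoid dendritic cells. It had 599 and 185 CPM in the chronic samples HRO.5 and HRO.6, 719, 1055 and 965 CPM in HRO.7, HRO.8 and HRO.9, 1101 CPM in HRY.4, 1044 and 810 CPM in WTO.3 and WTO.4, 850 CPM in WTY.3 and 650 CPM in HR.7. All 10 samples were high, and HRO.6 was the lowest. The pooled level of 790 CPM was 29.3-fold that of the next class, HSC and multipotent progenitors (27 CPM). In the cluster of plasmacytoid dendritic cells 65.5% of 751 cells had a UMI, against 0.0870% of the 3436 cells in the main cluster of mature neutrophils. The median UMIs per cell of these clusters were 4069 and 1445, so the depth differed too. The form of most tissues, Cox6a1, remained present there, at 262 to 276 CPM in HRO.7, HRO.8 and HRO.9 and 726 to 868 CPM in the WBM_1 samples.

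Ndufa4l2 (chromosome 10, 127514967 to 127517154, plus strand), a relative of the complex IV subunit Ndufa4 that is induced by hypoxia in other cells, was found in the erythroid cells of a single sample. HR.7 had 108 CPM, with a UMI in 476 of 1132 cells (42%, exact Clopper-Pearson 95% interval 39.2% to 45.0%, counting error only). HRO.11 had 1 UMI in 87 cells, and the other 8 samples had 0 in 37 to 122 cells, which allows 0.825 CPM (HRO.12) to 11.8 CPM (WTO.3) at 3 counts. In the main cluster of mature neutrophils 0.146% of cells had a UMI. Ndufa4 itself had 539 CPM in HR.7, below the others (765 to 1319 CPM). The erythroid cells of HR.7 lay almost wholly in a cluster of 1142 cells, all from WBM_3, apart from the cluster of 762 cells that held all erythroid cells of the samples outside WBM_3. HR.7 was the only WBM_3 sample with at least 20 erythroid cells, as the others of that pool had 3 to 11. Sample and pool therefore cannot be told apart. HR.7 entered no comparison, and what the sample is was not stated.

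Cox4i2 (chromosome 2, 152754173 to 152765037, plus strand), the lung form of subunit 4, was highest in plasma cells. It had 0 CPM in HRO.5 (28 cells, where 3 counts would be 9.87 CPM), 37.8 CPM in HRO.6, 49.2 CPM in HRO.9 and 41.5 CPM in WTO.4. The pooled 38.1 CPM was 5.92-fold the 6.44 CPM of conventional dendritic cells, and it rests on 36, 47 and 16 UMIs in the 3 positive samples. Cox6b2 (chromosome 7, 4751792 to 4753094, minus strand), the testis form of subunit 6b, was highest in erythroid cells: 142 and 189 CPM in HRO.5 and HRO.6, 274 CPM in both HRO.11 and HRO.12, 270 CPM in HRY.4, 170, 269 and 293 CPM in WTO.3, WTO.5 and WTO.6, and 200 CPM in WTY.3. HR.7 was low at 39.0 CPM. It was not limited to these cells: samples had 63.0 to 116 CPM in basophils or mast cells, 45.7 to 143 CPM in granulocyte-monocyte progenitors, 30.1 to 103 CPM in HSC and multipotent progenitors, 17.8 to 73.7 CPM in immature neutrophils and 13.5 to 53.1 CPM in monocytes. Mature neutrophils had a pooled 4.11 CPM. Cox7a1, the muscle form of subunit 7a, had pooled levels of at most 4.17 CPM in the named classes and 8.69 CPM in the unnamed cells, and the highest sample of a named class had 13.3 CPM (B lineage cells).

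**Figure D3:**
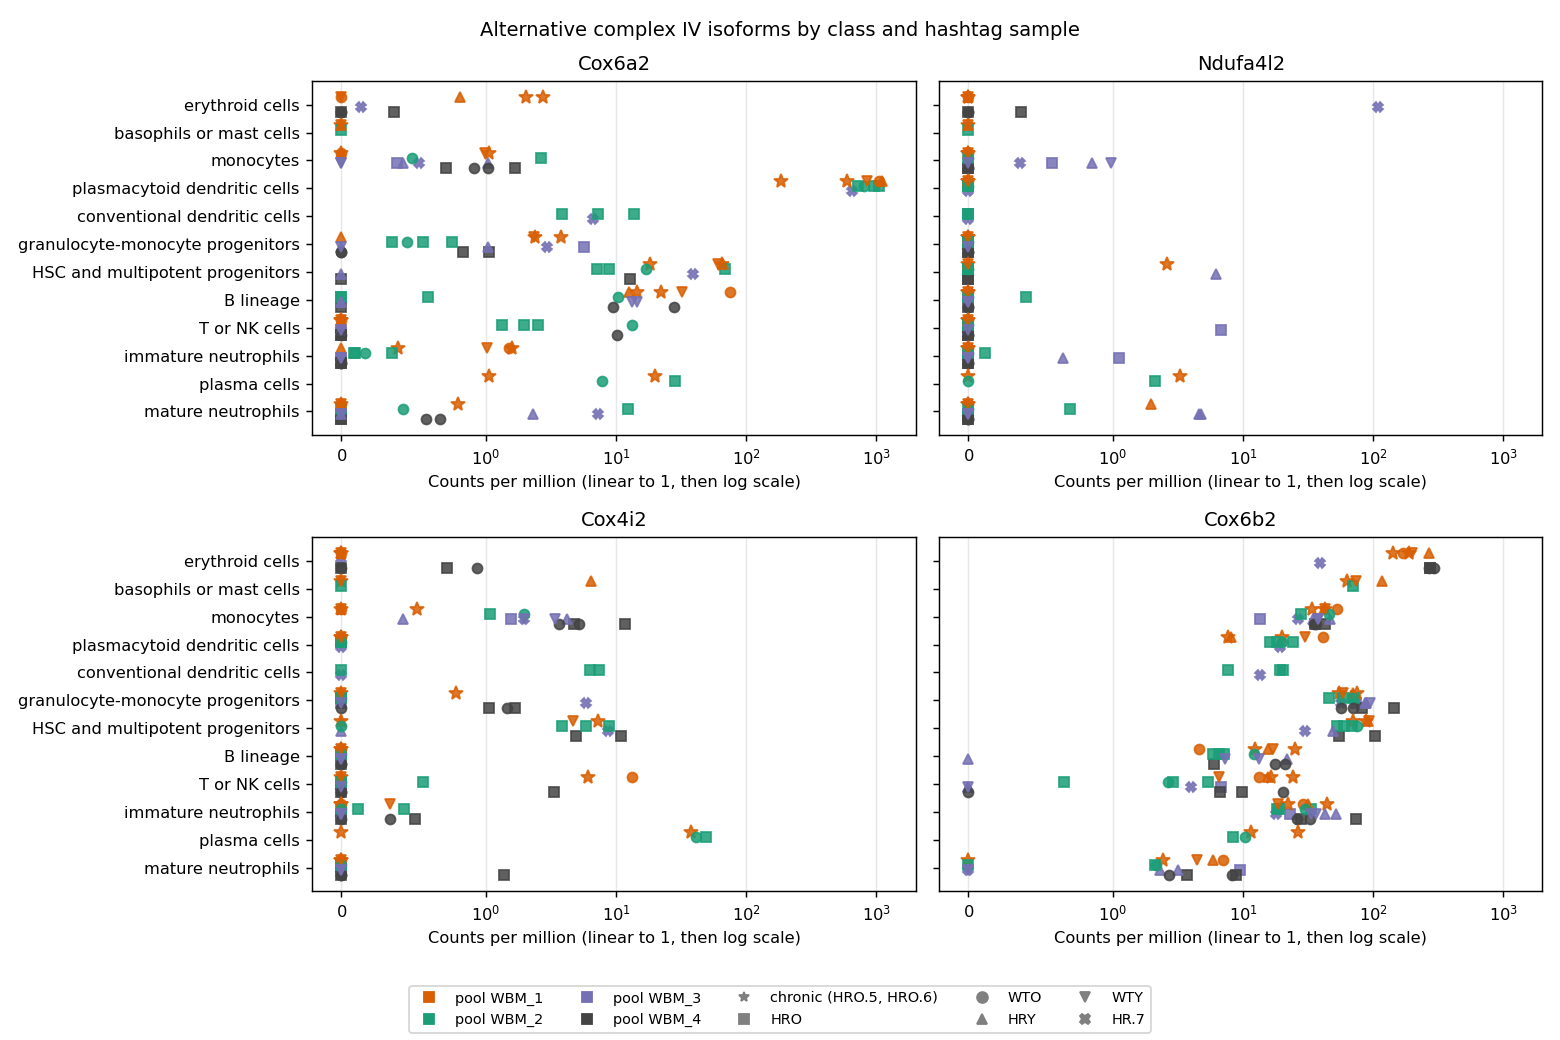
Level of Cox6a2, Ndufa4l2, Cox4i2 and Cox6b2 by class, one point per hashtag sample, in CPM on an axis that is linear to 1 and logarithmic above; colours are pools and shapes are groups. Cox6a2 is high in plasmacytoid dendritic cells of all 10 samples, Ndufa4l2 in erythroid cells of HR.7, Cox4i2 in plasma cells of 3 of 4 samples and Cox6b2 in erythroid cells.

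The members' levels differed between pools. In monocytes, the 5 samples of WBM_1 had subunit shares of 3.35% to 3.52%, against 1.95% to 2.89% in the 12 samples of the other pools. The shares were 1.75% to 1.78% against 1.14% to 1.47% in immature neutrophils, 1.11% to 1.21% against 0.656% to 0.948% in mature neutrophils, and 3.18% to 3.50% against 2.05% to 2.49% in granulocyte-monocyte progenitors. In each of these 4 classes WBM_1 lay above all other samples without overlap, although it holds samples of 4 groups. Its monocytes also lay almost wholly (98.6% to 100% per sample) in 1 cluster, of which WBM_1 made up 92.9%. Of 76 members at 20 CPM or more in monocytes, 30 were higher in WBM_1 without overlap and 5 were lower. Over all 6259 genes at that level, 4.39% were higher and 26.3% lower without overlap (30.7% in either direction).

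Uqcrh, the hinge protein of complex III, had 1440 to 1640 CPM in WBM_1 monocytes against 554 to 672 CPM elsewhere, a ratio of medians of 2.53. Atp5l (1807 to 1899 against 677 to 821 CPM) and Ndufa6 (609 to 733 against 247 to 332 CPM) had ratios of 2.52. The 5 lower members were Atp5b (0.505), Ndufa10 (0.524), Atp5a1 (0.545), Atp5g2 (0.572) and Uqcrc2 (0.587). The ratio ran with transcript length: across the 76 members its Spearman correlation with the longest coding transcript was -0.677 (Pearson -0.448), a description over genes that are not independent. In immature neutrophils 28 of 74 members were higher and 6 lower, where 2.9% and 33.2% of 4655 genes were (36.1% in either direction). In mature neutrophils the numbers were 17 and 2 of 68, where 1.56% and 22.9% of 4179 genes were (24.4% in either direction). WBM_1 also held a larger cytosolic ribosome share in monocytes (24.6% to 26.8% against 14.7% to 21.3%), was written by another Cell Ranger version and had its own barcode starts. The part of these in the difference was not tested. Comparisons between groups were therefore fitted with the pool as a term.

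In monocytes, 11 of 81 members tested were higher in HRO than in WTO samples and none was lower. They were spread over the complexes: 5 of 36 subunits of complex I, 2 of 8 of complex III, 1 of 13 of complex IV, 3 of 15 of the ATP synthase and 0 of 9 assembly factors. Counts summed per sample were tested with edgeR (quasi-likelihood), with Benjamini-Hochberg adjustment over all genes at 0.05. Of 9561 genes tested, 6.82% passed (3.93% higher, 2.89% lower), against 13.6% of the members. The fold change was above 0 for 72 of the 81 members, with a median of 0.19 on the log2 scale against 0.0035 over all genes. HRO.7 and HRO.8 had under 20 cells in the monocyte clusters and did not enter, so 4 samples stood against 4. They held 916 and 312 cells of the conventional dendritic class. Of the 1364 cells of that class, 416 gated as monocytes by their own markers, and none of the class entered here. An unnamed cluster of 1843 cells, 97.6% of them from WBM_2 and led by Gm15056, Cxcl9 and Saa3, met 6 monocyte markers but had more leading genes of another class and was left out.

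Ndufv1, which binds NADH, had 118, 70.0, 115 and 142 CPM in HRO.9, HRO.10, HRO.11 and HRO.12, against 25, 66.0, 103 and 121 CPM in WTO.3, WTO.4, WTO.5 and WTO.6. The groups overlapped, with WTO.3 of WBM_1 far below all others. With the pool as a term its log2 fold change was 0.54 (SE 0.16, edgeR adjusted p = 0.0436). Atp5b, the catalytic beta subunit of the ATP synthase, had 517, 637, 641 and 685 CPM in the HRO samples and 209, 360, 539 and 594 CPM in the WTO samples. HRO.9 lay below WTO.5 and WTO.6, which belong to another pool. Its log2 fold change was 0.46 (SE 0.12, edgeR adjusted p = 0.0204).

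Uqcrq, a small subunit of complex III, had 518, 530, 464 and 499 CPM in HRO and 491, 376, 409 and 433 CPM in WTO. Only WTO.3, from WBM_1, reached into the HRO range (log2 fold change 0.42, SE 0.10, edgeR adjusted p = 0.0177). Ndufv3, an accessory subunit of complex I, had 187, 186, 188 and 200 CPM in HRO and 237, 132, 167 and 156 CPM in WTO. Here too the other WTO samples lay below every HRO sample and WTO.3 lay above (0.45, SE 0.11, edgeR adjusted p = 0.0198). Ndufs3, a core subunit of complex I, had 127, 82.1, 142 and 162 CPM in HRO and 87.5, 81.1, 144 and 112 CPM in WTO, and the groups overlapped (0.42, SE 0.12, edgeR adjusted p = 0.0404). The other 6 were Ndufa5 and Ndufa12 of complex I, Uqcr11 of complex III, Cox5b of complex IV, and Atp5g1 and Atp5g3 of the ATP synthase, with log2 fold changes of 0.37 to 0.42.

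**Figure D4:**
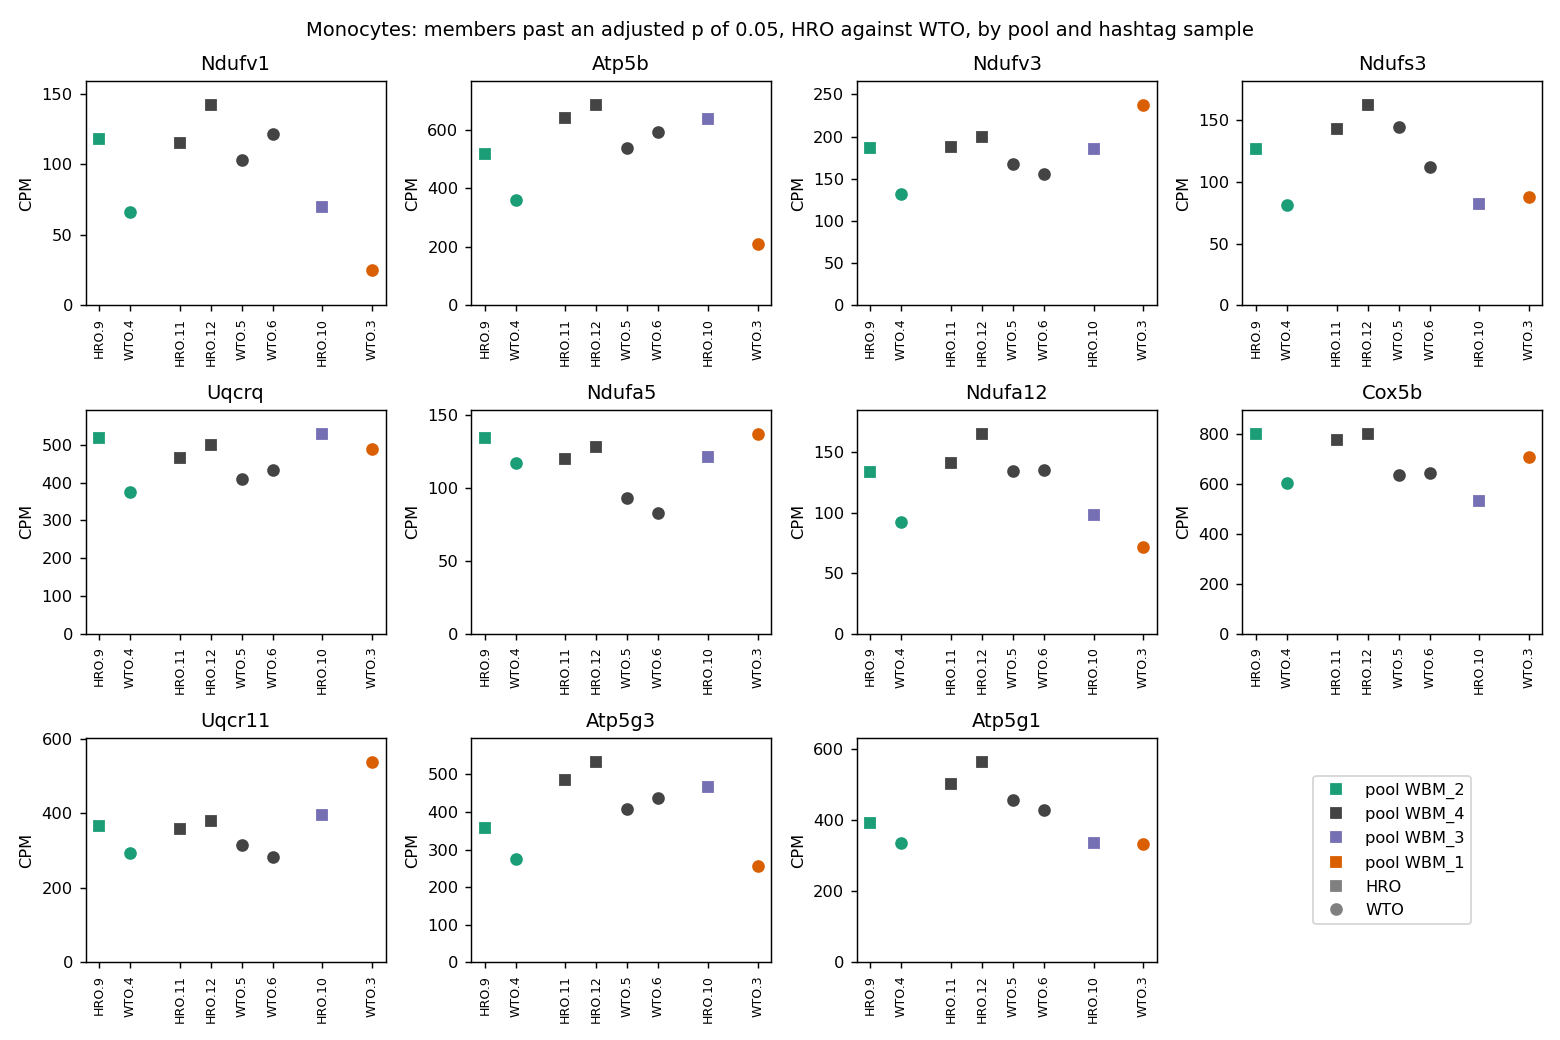
Level in monocytes (CPM) of the 11 members past an adjusted p of 0.05 in HRO against WTO, one point per hashtag sample, ordered by pool with HRO (squares) left of WTO (circles) in each of WBM_2 and WBM_4; HRO.10 and WTO.3 have no counterpart in their pools. The HRO squares of a pool lie above the WTO circles on average in all 11 panels, and WTO.3 of WBM_1 lies far from the other WTO samples in several.

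Within pools the direction held. Only WBM_2 and WBM_4 hold both groups. The mean of the HRO samples was above that of the WTO samples for all 11 called members in both pools. This repeats what the fit used. Of 77 members at 20 CPM or more, 66 were higher in HRO in WBM_2 (median log2 ratio 0.179) and 62 in WBM_4 (0.118). The summed share was 2.73% in HRO.9 against 2.41% in WTO.4, and 2.69% and 2.89% in HRO.11 and HRO.12 against 2.61% and 2.63% in WTO.5 and WTO.6. In WBM_3, HRO.10 had 2.44%, HRY.5 and HRY.6 2.24% and 2.27%, and WTY.4 and WTY.5 1.95% and 2.02%. The calls depended on single samples: none remained without HRO.9, without HRO.10, without WTO.3 or without WTO.4, 5 without HRO.12 and 3 without WBM_1.

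Depth per cell and the level of neutrophil transcripts varied between these monocytes. Their median UMIs per cell were 7583 to 12004.5 in HRO and 2583 to 8067 in WTO samples. The summed share of 7 abundant neutrophil genes was 0.795%, 0.615%, 1.35% and 0.865% in HRO and 1.62%, 0.138%, 0.671% and 0.672% in WTO. Of the 8 mature neutrophil markers 3 were higher in HRO (median log2 fold change 0.73), and 0 of the 8 monocyte markers passed. The class joined clusters of 2837, 1911 and 1581 cells, with median UMIs per cell of 5529, 11646 and 2671. By their own markers 463 of its cells gated as granulocyte-monocyte progenitors. How HRO and WTO cells were spread over these clusters is not given here. The part of depth, neutrophil transcripts and cluster mix in the result was not tested.

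Other energy genes in the same cells moved to different extents. Of 16 glycolysis genes tested, 8 were higher in HRO and none lower (median log2 fold change 0.51). They included Pfkl (0.80), Ldha (0.78), Gapdh (0.71) and Pkm (0.67). Of 77 mitochondrial ribosome genes 6 were higher (median 0.23), among them Mrpl52 (0.71). None passed among 4 complex II genes, 12 citric acid cycle genes, 24 import genes, 10 electron carrier genes or the 13 mt- genes, whose median was 0.04. Of 5 genes for the ATPase inhibitor and inner membrane carriers, Slc25a4, which exchanges ADP for ATP, was higher (0.37), and of 11 regulators Hif1a, the oxygen-regulated factor that induces glycolysis, was higher (0.58). Of 87 cytosolic ribosome genes 2 were higher.

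**Figure D5:**
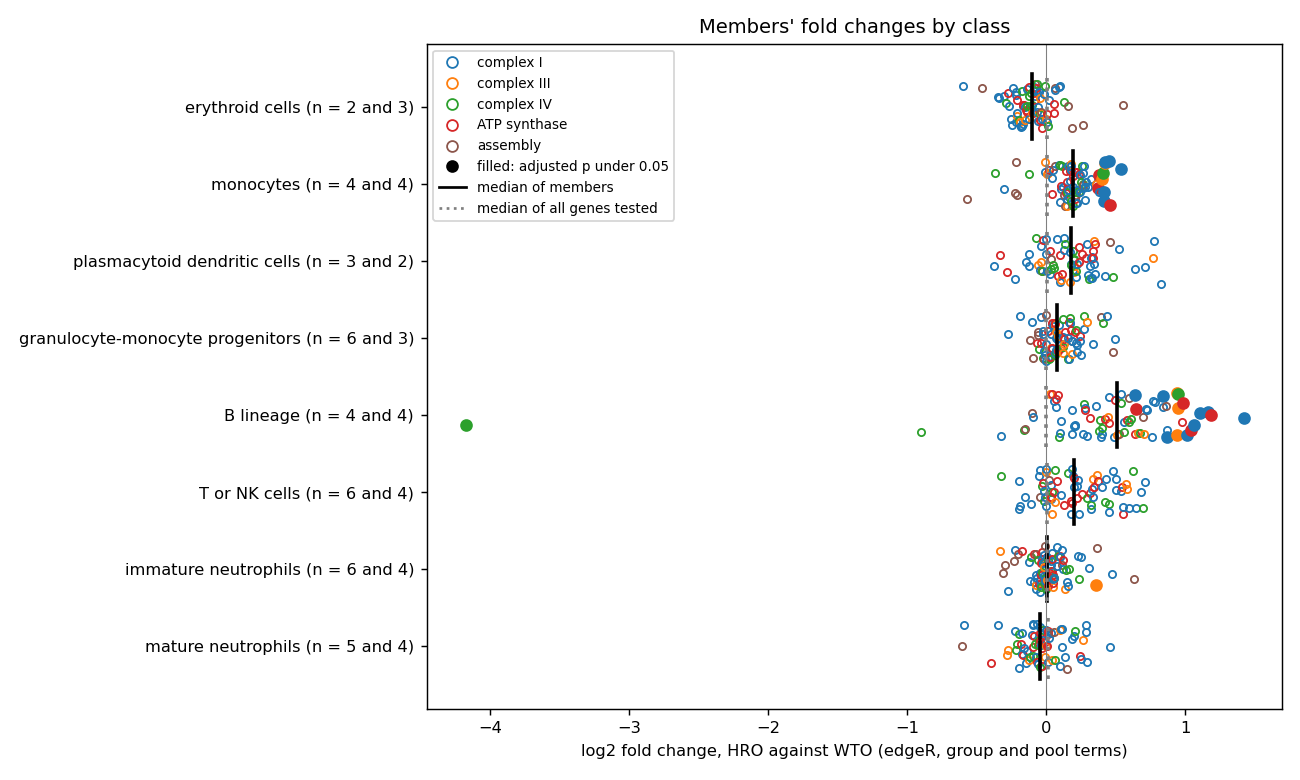
log2 fold change of each member in HRO against WTO (edgeR, group and pool terms) by class, one point per member coloured by complex, filled where the adjusted p is under 0.05; black bars are medians of the members, dotted bars medians of all genes, and n gives the HRO and WTO samples. Medians lie near 0.19 in monocytes and 0.51 in B lineage cells and near 0 in neutrophils, and Cox6a2 is the single filled point below 0, at -4.18.

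In B lineage cells, 16 of 79 members were higher in HRO than in WTO samples and 1, Cox6a2, was lower. The 16 were 8 of 36 subunits of complex I, 3 of 8 of complex III, 1 of 14 of complex IV and 4 of 15 of the ATP synthase, with 0 of 6 assembly factors. Of 8043 genes tested, 11.9% passed (6.75% higher, 5.16% lower), against 21.5% of the members. The members' median log2 fold change was 0.51, and 72 of the 79 were above 0.

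Ndufa12, an accessory subunit of complex I, had 174, 164, 85.6 and 255 CPM in HRO.7, HRO.8, HRO.9 and HRO.11, against 112, 55.4, 182 and 102 CPM in WTO.3, WTO.4, WTO.5 and WTO.6. HRO.9 was low and WTO.5 high, and the groups overlapped (log2 fold change 1.42, SE 0.34, edgeR adjusted p = 0.0185). Atp5b had 453, 473, 334 and 910 CPM in HRO and 270, 249, 342 and 483 CPM in WTO. HRO.11 was the highest of all and HRO.9 lay among the WTO samples (1.18, SE 0.24, edgeR adjusted p = 0.00828). Ndufa9, of the complex I matrix arm, had 73.8, 73.1, 41.3 and 137 CPM in HRO and 43.4, 43.3, 48.9 and 63.5 CPM in WTO (1.16, SE 0.29, edgeR adjusted p = 0.0205), again with HRO.9 below the other HRO samples. Ndufc2 (1.10) and Ndufa5 (1.06) followed.

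Cox6a2 was the exception. It had 0.598 CPM in HRO.7 and 0 in HRO.8, HRO.9 and HRO.11, against 75.4, 10.4, 27.9 and 9.53 CPM in WTO.3, WTO.4, WTO.5 and WTO.6, and the groups did not overlap. These are 3 UMIs in HRO and 49 UMIs in WTO, a ratio of pooled levels of 0.0147 (exact 95% counting interval 0.00293 to 0.0456). The zeros allow 2.13 CPM in HRO.8, 8.86 CPM in HRO.9 and 4.46 CPM in HRO.11 at 3 counts. The fitted log2 fold change was -4.18 (SE 0.80, edgeR adjusted p = 0.00729), and at counts this low its size depends on the prior count. In the WTY samples the level was 32.3, 13.3 and 14.4 CPM. HRY.4 had 9 UMIs in 536 cells, while HRY.5 and HRY.6 had 0 in 28 and 23 cells. The chronic samples HRO.5 and HRO.6 had 9 and 7 UMIs in 286 and 356 cells. Siglech, a defining marker of the plasmacytoid dendritic cells in which Cox6a2 is high, had 0 UMIs in the B lineage cells of every HRO sample and 3, 0, 0 and 0 in the WTO samples, and 1 cell, in WTO.3, held both. Klk1, another marker on that list, had 1 UMI in HRO.7 and 0 in the other HRO and the WTO samples. The 8 markers summed ran the other way, with 1013, 1073, 1019 and 662 CPM in HRO.7, HRO.8, HRO.9 and HRO.11 against 462, 941, 510 and 543 CPM in WTO.3 to WTO.6, and their part in the result was not tested.

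The B lineage cells of the groups lay in different clusters. In HRO.7 and HRO.8, 96.2% and 96.3% of them lay in a cluster of 482 cells, all from WBM_2, led by Ccl22 and Shisa8. HRO.9 and HRO.11 lay mostly in another cluster (73.9% and 90.9%), led by Fcer2a and Ms4a1. The WTO samples had 36.5% to 69.4% of theirs in that cluster and the rest in one led by Rag1 and Vpreb1, so different clusters make up the class in the groups. Median UMIs per cell were 4381 to 13227 in HRO and 774 to 2330 in WTO samples, and the share of the 7 neutrophil genes was 0.123% to 0.411% in HRO and 0.741% to 3.50% in WTO. Of 8 mature neutrophil markers and 8 erythroid markers tested, 3 and 2 were lower in HRO. Their part in the result was not tested. No member passed without HRO.11, 3 without WTO.4, 7 without WTO.5, 9 without WTO.6, 8 without HRO.8, 10 without HRO.7 and 34 without HRO.9. Without HRO.7 and HRO.8 together 7 passed, and without WBM_1 9. Within pools, 69 of 77 members were higher in HRO in WBM_2 and 45 of 76 in WBM_4, and the summed share was 0.483 and 0.299 percentage points higher.

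Genes outside the respiratory chain also differed in B lineage cells. Of 85 cytosolic ribosome genes 47 were higher in HRO and 1 lower. Of 77 mitochondrial ribosome genes 12 were higher, with Mrpl17 at 1.45 and Mrpl12 at 1.10 on the log2 scale, and so were 7 of 16 glycolysis genes, 5 of 22 import genes, 3 of 12 citric acid cycle genes and 1 of 4 complex II genes (Sdhd, 0.93). Of the 13 mt- genes, mt-Nd1 (0.70) and mt-Nd3 (1.02), both subunits of complex I, were higher.

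Few members passed in the other classes of HRO against WTO. In immature neutrophils (6 samples against 4) only Uqcrfs1, the Rieske iron-sulfur protein of complex III, passed of 81 members, where 2.29% of 9216 genes did (1.77% higher, 0.521% lower). It had 72.8, 73.9, 89.1, 63.4, 96.1 and 95.3 CPM in HRO.7 to HRO.12 and 54.6, 65.6, 76.6 and 73.7 CPM in WTO.3 to WTO.6, with overlap (log2 fold change 0.36, SE 0.09, edgeR adjusted p = 0.0400). The call was lost without HRO.8, HRO.10, HRO.11, HRO.12 or any single WTO sample. No member passed edgeR's test in granulocyte-monocyte progenitors (5 at an unadjusted p under 0.05, 0 by DESeq2; 0.122% of all genes passed), mature neutrophils (6, 1 by DESeq2; 1.42%), plasmacytoid dendritic cells (2, 0 by DESeq2; 0.103%), T or NK cells (5, 0 by DESeq2; 0.0727%) or erythroid cells (5, 1 by DESeq2; 0.288%). The members' median log2 fold changes in these 5 classes lay between -0.10 and 0.20.

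HRO and HRY samples were compared through the same fit, and the HRO samples are those used against WTO. In monocytes (4 against 3) 4 of 81 members were higher in HRO and 1 lower, 6.17% against 7.08% of all genes (4.29% higher, 2.79% lower), so the members did not exceed the background. Atp5g1, one of the c subunit genes, had 391, 336, 501 and 563 CPM in HRO.9 to HRO.12 and 281, 209 and 203 CPM in HRY.4 to HRY.6, without overlap (log2 fold change 0.70, SE 0.14, edgeR adjusted p = 0.00407). Cox7b had 427, 434, 444 and 492 CPM in HRO and 443, 295 and 316 CPM in HRY (0.53, SE 0.15, edgeR adjusted p = 0.0346). HRY.4, from WBM_1, was the HRY sample inside the HRO range.

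Uqcr11 had 366, 396, 357 and 378 CPM in HRO and 528, 288 and 279 CPM in HRY (0.48, SE 0.13, edgeR adjusted p = 0.0222), and Uqcrq 528, 381 and 362 CPM in HRY (0.46, SE 0.14, edgeR adjusted p = 0.0448). In both, HRY.4 was high and the other HRY samples were below every HRO sample. Cox6b2 was lower, with 28.1, 13.5, 36.0 and 42.8 CPM in HRO and 42, 34.5 and 46.6 CPM in HRY (-1.18, SE 0.30, edgeR adjusted p = 0.0176). Its groups overlapped, and HRO.10 was the low sample: without it the fold change was 0.0070. No member passed without HRO.10, 2 without any single HRY sample, and only WBM_3 holds both groups.

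In mature neutrophils (5 against 3) Ndufs8, an iron-sulfur subunit of complex I, was lower in HRO, the only one of 72 members to pass where 4.52% of 5911 genes did (2.88% higher, 1.64% lower). It had 0, 17.6, 6.34, 28.2 and 28.0 CPM in HRO.7, HRO.9, HRO.10, HRO.11 and HRO.12 and 31.6, 32.1 and 23.9 CPM in HRY.4, HRY.5 and HRY.6. HRO.7 held 39 such cells, in which 3 counts would be 37.3 CPM, so its 0 does not separate it from HRY at this depth (log2 fold change -2.26, SE 0.62, edgeR adjusted p = 0.0396). The call was lost without HRO.10 or any single HRY sample. No member passed in HSC and multipotent progenitors (fitted without the pool, which could not be estimated; 6 at an unadjusted p under 0.05, where 0.0916% of all genes passed), immature neutrophils (10; 0.13%), granulocyte-monocyte progenitors (11), B lineage cells (6) or T or NK cells (2), with 0 genes of any kind passing in the last 3 and 0 members by DESeq2 in all 5.

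HRY against WTY gave no member past edgeR's adjusted threshold in any of the 6 classes tested. In monocytes (3 samples against 3) 79 of 81 members had a fold change above 0, with a median of 0.13 on the log2 scale, 12 had an unadjusted p under 0.05, 0 passed by DESeq2, and 0 of all 9561 genes passed. The summed share in monocytes was 3.40% in HRY.4 against 3.52% in WTY.3 in WBM_1, and 2.24% and 2.27% in HRY.5 and HRY.6 against 1.95% and 2.02% in WTY.4 and WTY.5 in WBM_3, so the direction differed between the pools. The smallest p values belonged to Uqcr10, a small subunit of complex III, in monocytes (403, 314 and 265 CPM in HRY and 234, 125 and 229 CPM in WTY; log2 fold change 0.73, SE 0.19, edgeR adjusted p = 0.361), to Ndufs3 in monocytes (0.55, edgeR adjusted p = 0.368) and to Uqcr10 in B lineage cells (1.02, edgeR adjusted p = 1). In immature neutrophils 69 of 81 members were above 0 and 13 had an unadjusted p under 0.05. The other 4 classes had 0 to 7 such members, with 0.0111% of all genes past the threshold in granulocyte-monocyte progenitors, 0.0169% in mature neutrophils and 0 in the other 2.

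WTO against WTY gave none either, with 1 to 6 members at an unadjusted p under 0.05 per class, 0 by DESeq2, and at most 0.0846% of all genes past edgeR's threshold (mature neutrophils). In monocytes 69 of 81 members were above 0, with a median of 0.14, where 0.0732% of all genes passed. The smallest p values were those of Ndufs4 (log2 fold change -2.17, edgeR adjusted p = 0.789) and Cox6b1 (-0.84, edgeR adjusted p = 0.789) in granulocyte-monocyte progenitors and of Cox7b in monocytes (0.48, edgeR adjusted p = 0.498). Only WBM_1 holds both groups, with 1 sample each.

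No pool holds both chronic and HRO samples, so they were compared through the WBM_1 samples of the other groups, and in HSC and multipotent progenitors, where the pool term could not be estimated, pool and group cannot be told apart. There 2 of 77 members were higher in chronic samples, where 0.794% of 6550 genes passed (0.565% higher, 0.229% lower). Ndufa2, a small subunit of complex I, had 707 and 692 CPM in HRO.5 and HRO.6 against 348, 343, 267, 249 and 255 CPM in HRO.7, HRO.8, HRO.9, HRO.11 and HRO.12, without overlap (log2 fold change 1.53, SE 0.30, edgeR adjusted p = 0.0331). The other WBM_1 samples, HRY.4 and WTY.3, had 512 and 663 CPM. Ndufb2 had 262 and 345 CPM in the chronic samples against 145, 188, 106, 123 and 120 CPM in HRO (1.45, SE 0.27, edgeR adjusted p = 0.0289), and 208 and 315 CPM in HRY.4 and WTY.3. The summed share of HSC and multipotent progenitors in WBM_1 was 3.01% and 3.04% in the chronic samples, 2.92% in HRY.4 and 3.03% in WTY.3. Of the erythroid markers 3 of 6 tested were higher in the chronic samples, and 1 of 7 neutrophil genes. Their part in the result was not tested. Neither member passed without HRO.5, HRO.6, HRO.9, HRO.11 or HRO.12, and 14 members passed by DESeq2.

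With the pool term no member passed edgeR's test in the other 8 classes of this comparison, and none by DESeq2. In monocytes, where 0.492% of all genes passed, the members' median was -0.26, 15 of 81 were above 0, and 19 had an unadjusted p under 0.05. In B lineage cells the median was -0.51, 11 of 79 were above 0, 14 had an unadjusted p under 0.05, and 0 of 8043 genes passed. The other 6 classes had 0 to 6 such members, with 0.0508% of all genes past the threshold in mature neutrophils, 0.0109% in immature neutrophils and 0 in the other 4. Beside the samples of their own pool, the chronic samples had B lineage shares of 2.85% and 2.29%, below HRY.4 (2.97%), WTO.3 (2.93%) and WTY.3 (2.98%). Their monocyte shares were 3.35% and 3.49%, against 3.40% in HRY.4, 3.50% in WTO.3 and 3.52% in WTY.3, and the chronic samples lay on both sides of HRY.4. Mature neutrophil shares were 1.11% and 1.15% in the chronic samples and 1.17% to 1.21% in the other 3. Erythroid shares were 3.61% and 3.80% in the chronic samples and 3.77% to 4.29% in the others, with overlap. These are single samples set side by side, with no test.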

How the data were processed

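The authors deposited whole-number UMI counts of genes by cell, not normalised, and hashtag counts. Per the file headers, Cell Ranger 3.0.0 wrote the WBM_1 matrix and Cell Ranger 3.1.0 the others. The submitters' processing notes name mm10 as the build and Seurat, Cell Ranger and bcl2fastq as tools; the gene annotation is not given in the sources used here. Hashtags were assigned with HTODemux (Seurat 5.3.0, positive quantile 0.99) and singlets kept; no further doublet caller was run. The WBM_3 libraries had 2078 barcodes in common, where no other pair had more than 51, and among singlets the copy with fewer UMIs was dropped (19 cells). Cells under 300 genes (4538) and then cells at or over 10% mt- UMIs (10363) were removed.

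Cells were clustered in scanpy 1.11.5 (2000 variable genes within libraries without the members and the lists of mitochondrial genes, 30 principal components, 20 neighbours, Leiden resolution 1, no integration) and clusters named from marker lists: the class with the most markers in over 10% of cells at over 2-fold the rest, at least 3 and no tie. Names mean that cells resemble a class by these markers. Counts were summed per sample and class with at least 20 cells. Groups with at least 2 such samples were fitted together with edgeR 4.0.16 (R 4.3.3; TMM, filterByExpr, quasi-likelihood test, Benjamini-Hochberg adjustment at 0.05 over all genes) with group and pool as terms, and group alone where the contrast could not be estimated with pool. The script was tested on simulated counts. Folds are log2 values from the fit.

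Members, lists and markers were chosen with earlier results of these data known. Named were all paired isoforms, members at 20 CPM or more and at least 3-fold the second class, up to 5 called members in each direction per comparison, the member with the highest mean of each complex, up to 3 with the smallest p where none passed, and up to 5 genes most like the summed share. A gene that this rule named is not reported here. Alternatives were DESeq2 1.42.0, other hashtag normalisation, a per-cell marker gate, no mt- limit, no filter, no TMM, no pool term, at least 50 cells, and samples left out. Positions are from GENCODE vM21 (GRCm38).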

Additional observations from a re-analysis of the deposited data

Results flagged for a closer look

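In T or NK cells, WTO.3 had a subunit share of 2.48%, apart from the other 3 WTO samples. Its distance from them passed the limit for a single outlying value; 24 groups were tested this way, and chance flags about 1 in 20 groups. WTO.3 is the only WTO sample of pool WBM_1, whose other samples had T or NK shares of 2.30% to 2.67%.

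The erythroid cells of HR.7, a sample in no comparison, had 108 CPM of Ndufa4l2, a level not met in any other sample with at least 20 erythroid cells. None of those others belongs to WBM_3, the pool of HR.7.

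HR.AE, also in no comparison, had a median mt- share of 34.1% over its barcodes before the limit of 10%, against 0.804% to 4.55% in the other samples, and 6273 of its 7674 barcodes (81.7%) were at or over that limit.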

How the results depend on the processing

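Of the 891 alternative values of main results, 780 kept their direction and size. Of the 652 alternative values of single members' fold changes, 370 kept their call, 279 kept the direction without passing the threshold and 3 turned. Medians over samples, and pooled levels without HR.7 or without HRO.7 and HRO.8, were set beside pooled levels after seeing the data. For the other settings, here and above, the share of all genes passing is not given beside the count of members. Those counts therefore do not set members apart from other genes. The counts of members called moved most, and the cause was not tested except where named. With DESeq2 they were 30 in B lineage cells, 2 in immature, 1 in mature neutrophils and 1 in erythroid cells (HRO against WTO), and 14 in HSC (chronic against HRO). Without a pool term they were 0 in monocytes and immature neutrophils and 1 in B lineage cells (HRO against WTO), 0 in monocytes and mature neutrophils and 1 in B lineage cells (HRO against HRY), and 2, 3, 2 and 4 in B lineage cells, erythroid cells, granulocyte-monocyte progenitors and plasmacytoid dendritic cells (chronic against HRO); Uqcr11 in monocytes then turned to -0.062 (HRO against WTO) and -0.073 (HRO against HRY). Without pool WBM_1, chosen after seeing the data, they were 3 in monocytes, 9 in B lineage cells and 0 in immature neutrophils (HRO against WTO), and 8, 2, 1 and 3 in monocytes, B lineage cells, immature and mature neutrophils (HRO against HRY). With at least 50 cells they were 0 in B lineage cells (HRO against WTO), and 56 in erythroid and 25 in plasmacytoid dendritic cells (chronic against HRO), where too few samples remained to keep the pool term. In chronic against HRO without that term, pool and group cannot be told apart. Without HRO.7 and HRO.8 the counts of members called were 7 in B lineage cells (HRO against WTO) and 1 in HSC (chronic against HRO). Library sizes alone gave 8, 6 and 0 in B lineage cells, monocytes and immature neutrophils (HRO against WTO) and 1 in HSC (chronic against HRO). The other hashtag normalisation gave 0 in immature neutrophils (HRO against WTO), and 0 in mature neutrophils and 1 in monocytes (HRO against HRY). The per-cell marker gate gave 25 in monocytes and 0 in immature neutrophils (HRO against WTO), and 3 in monocytes and 1 in granulocyte-monocyte progenitors (HRO against HRY). No filter on low counts gave 3 in immature neutrophils and 1 each in mature neutrophils and erythroid cells (HRO against WTO), 10, 1 and 2 in monocytes, immature neutrophils and HSC (HRO against HRY), 1 in monocytes and 2 in immature neutrophils (HRY against WTY), 1 in granulocyte-monocyte progenitors (WTO against WTY), and 14 in HSC and 1 in granulocyte-monocyte progenitors (chronic against HRO). No mt- limit gave 1 in mature neutrophils (HRO against WTO), 0 in mature neutrophils and 1 in monocytes (HRO against HRY), and 0 in HSC (chronic against HRO). Leaving out each sample in turn, where a sample left alone in its group was assumed to vary like the others, gave 0 to 13 in monocytes, 0 to 34 in B lineage cells, 0 to 2 in immature neutrophils, 0 to 1 in mature neutrophils and erythroid cells and 0 to 4 in plasmacytoid dendritic cells (HRO against WTO), 0 to 7 in monocytes, 0 to 1 in mature neutrophils and 0 to 5 in HSC (HRO against HRY), 0 to 1 in monocytes (WTO against WTY) and 0 to 3 in HSC (chronic against HRO). Cox6b2 in monocytes (HRO against HRY) gave -1.32 to 0.0070, the upper value without HRO.10. As a share of UMIs other than mt-, globin and ribosomal ones, the subunit medians were 5.51% in erythroid cells, 4.39% in basophils or mast cells, 3.62% in plasmacytoid and 3.40% in conventional dendritic cells, 3.46% in monocytes, 3.39% in HSC, 3.32% in B lineage cells, 3.23% in granulocyte-monocyte progenitors and 2.52% in T or NK cells. Basophils or mast cells had 1.63% without the mt- limit and 2.46% by the gate, and conventional dendritic cells 1.96% without HRO.7 and HRO.8. Without the mt- limit the class of basophils or mast cells also held a cluster of 5683 cells, almost all from WBM_2, that met only 3 of its markers. The within-pool difference of the share, HRO minus WTO, was 0.299 to 0.483 percentage points in B lineage cells with a sample left out and 0.872 over the other UMIs, and 0.302 in granulocyte-monocyte progenitors by the gate. No paired analysis was possible because HRO shares no hashtag number with the groups it was set against, and most numbers shared by HRY, WTO and WTY lie in different pools. Depth limits the classes with few cells: plasma cells, basophils or mast cells and conventional dendritic cells reached 20 cells in 4 samples each.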

Other observations

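HR.AE was seen mostly outside the cells kept. Without the limit on the mt- share, its largest class was named basophils or mast cells, with 5568 cells, a subunit share of 0.441% and an mt- share of 36.6%. That class then joined a cluster of 5683 cells, almost all from WBM_2 and led by AU022793 and Epha5, to one of 294 cells led by Prss34 and Mcpt8. The larger cluster met 3 markers, the fewest the rule allows, and the smaller 8. The name is therefore weak for the HR.AE cells. The 2095 unnamed cells of HR.AE had a subunit share of 1.76% and an mt- share of 8.38%. The labels do not say what HR.AE is, and the values are given without a comparison.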
